A study of Mus musculus with 24 samples.

Results

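The heat shock proteins and their DNAJ co-chaperones were followed in purified mouse pancreatic alpha and beta cells over a day. Members were taken by gene symbol: heat shock factors 1 and 2, the Hspa, Hspb, Hspd, Hspe, Hsph and Hsp90a genes, the exchange factor Hspbp1, and every Dnaja, Dnajb and Dnajc gene. The 5 classical chaperones of the endoplasmic reticulum (ER), Hspa5, Hsp90b1, Dnajb9, Dnajb11 and Dnajc3, were left out of the set. This gave 62 of the 14027 genes measured, under 61 symbols, because Hspa14 is listed under 2 gene identifiers. By class they were 2 heat shock factors, 15 genes of the HSP70 group, 2 cytosolic HSP90 genes, 4 small heat shock proteins, 2 mitochondrial chaperonin genes, and 4 DNAJA, 8 DNAJB and 25 DNAJC genes. One of them, Hspa9-ps1, is annotated as a processed pseudogene, and its reads cannot be separated with certainty from those of Hspa9.

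The 24 libraries come from alpha and beta cells of a triple reporter mouse strain, whose alleles and age the labels do not describe. No treatment is given for any library. Islets were isolated at zeitgeber times ZT0, ZT4, ZT8, ZT12, ZT16 and ZT20, that is, hours after lights-on, and each time and cell type has 2 libraries, so 12 libraries per cell type. Total RNA was depleted of ribosomal RNA and sequenced with strand information. Whether both libraries of a group stem from different animals is not stated in the labels. The p-values therefore reflect library-to-library spread, which could be technical. Libraries held 4944982 to 12364190 reads. Levels are given in RPKM, that is, read numbers corrected for gene length and library size, and differences in log2 RPKM with the standard error of the limma fit. Means over the 12 libraries of a cell type are given ± SD, which includes the time of day.

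The labels were checked against marker genes. Alpha markers summed to 96020 to 165300 RPKM in alpha libraries and 39.2 to 1915 RPKM in beta libraries, and beta markers to 413.5 to 5210 RPKM in alpha libraries and 188800 to 350900 RPKM in beta libraries. Delta, PP, duct, stromal and glial marker sums were also higher in alpha libraries. The PP sum was the largest of these, at 27830 to 59540 RPKM in alpha and 359.4 to 1730 RPKM in beta libraries. The delta sum was 2513 to 5177 RPKM in alpha and 644.5 to 1421 RPKM in beta libraries. The stromal sum was 4.21 to 7.35 RPKM in alpha and 0.374 to 1.04 RPKM in beta libraries. The duct sum was 25.6 to 78.6 RPKM in alpha and 5.03 to 19.2 RPKM in beta libraries. In alpha libraries each of these 2 sums came mostly from 1 gene. These were Col1a2 (means of 4.41 RPKM in alpha, 0.0856 RPKM in beta) and Spp1 (46.5 RPKM in alpha, 8.86 RPKM in beta). The part of these other cells in the differences below was not tested. In RNA from pooled sorted cells, fewer cells with a transcript and less of it per cell cannot be told apart.

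Chaperones bind unfolded stretches of protein and release them in cycles driven by ATP. In the HSP70 cycle, a J protein (DNAJA, DNAJB or DNAJC) brings the client and triggers ATP hydrolysis, and an exchange factor such as an HSP110 protein resets the cycle. HSP90 takes over clients such as kinases and steroid receptors, small heat shock proteins hold unfolded proteins without ATP, and the chaperonin Hspd1 with its lid Hspe1 folds proteins in mitochondria. Heat shock factor 1, the product of Hsf1, is kept inactive by chaperones and, when proteins unfold, binds inverted repeats of the unit nGAAn, the heat shock element, in the promoters of inducible chaperone genes. Hormone-secreting islet cells make large amounts of protein, and in mouse liver several heat shock genes are known to peak in the night, when mice feed and body temperature is high.

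Promoter windows from RefSeq (build GRCm38.p6, 250 bases before to 50 after the start) were matched for 47 of the 61 symbols. They were searched on both strands for a strict heat shock element of 3 inverted units, TTC, GAA and TTC or GAA, TTC and GAA with 2 free bases between neighbours, and for a shorter one of 2 units, GAANNTTC or TTCNNGAA, which is contained in the longer one. The 3-unit element was present in windows of 4 of the 47 members (8.51%), Dnajb6, Hspd1, Hspe1 and Hsph1, against 0.662% of the 27025 genes with a window. Hspd1 and Hspe1 carry the same elements in a window they share, so their matches are not separate sites. The 2-unit element was present in 29.8% of these 47 members against 17.0% of the 27025 genes with a window, measured here or not. Members without a window included Hsf1, Hspa8, Hsp90aa1 and Hsp90ab1. A match describes letters in the window and not bound factor. The sequences below are shown because Hspa1a and Hspa1b were the most variable members between replicates, Hsph1 had the steepest daily rhythm, Hspe1 carries 2 overlapping 3-unit elements, and Hspb1 differed between the cell types. Each is written 5′ to 3′ on the gene's strand, with every 2-unit or longer element in capitals. The Hspa1a, Hspa1b and Hspb1 lines hold the 250 bases before the start (chr17:34972157-34972406, minus strand; chr17:34959239-34959488, minus strand; chr5:135887669-135887918, plus strand). The Hspe1 line holds 30 bases before its start (chr1:55088055-55088084, plus strand) in the window it shares, over 285 bases, with the divergent gene Hspd1. The Hsph1 line holds 30 bases just after its start (chr5:149636279-149636308, minus strand).
Hspa1a: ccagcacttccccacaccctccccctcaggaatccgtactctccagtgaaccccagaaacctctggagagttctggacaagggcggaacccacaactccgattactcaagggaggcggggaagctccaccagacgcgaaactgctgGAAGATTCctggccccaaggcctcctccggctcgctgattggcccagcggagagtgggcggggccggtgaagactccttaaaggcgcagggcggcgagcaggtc
Hspa1b: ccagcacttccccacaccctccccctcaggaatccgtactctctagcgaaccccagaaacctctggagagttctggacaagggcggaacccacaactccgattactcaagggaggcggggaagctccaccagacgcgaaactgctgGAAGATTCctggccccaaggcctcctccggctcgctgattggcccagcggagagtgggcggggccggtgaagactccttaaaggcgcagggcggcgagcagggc
Hspb1: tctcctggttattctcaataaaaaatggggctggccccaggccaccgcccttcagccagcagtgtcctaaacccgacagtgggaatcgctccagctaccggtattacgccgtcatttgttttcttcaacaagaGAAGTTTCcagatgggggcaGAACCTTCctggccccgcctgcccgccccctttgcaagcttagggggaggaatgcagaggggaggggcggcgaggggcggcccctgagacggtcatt
Hspe1: tccgTTCTAGAACCTTCCGGAAggccccgc
Hsph1: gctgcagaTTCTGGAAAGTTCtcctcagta

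The Hspa1a and Hspa1b stretches differ in 3 of 250 bases. The genes are neighbours on chromosome 17 with nearly the same transcript, so how their reads were divided is uncertain, and their values are best read together.

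The cell types were compared first, to see which chaperones are set higher in glucagon-producing or insulin-producing cells. Together the members reached 1114 ± 60.7 RPKM in alpha cells against 1286 ± 110 RPKM in beta cells (SD, n = 12 each). The sums of single libraries overlapped, at 1029 to 1207 RPKM in alpha and 1100 to 1510 RPKM in beta cells. The difference of this sum was not tested, nor was it computed under other scalings. Hsp90ab1 made up 25.7% ± 2.55 of that sum in alpha cells and Hspa8 another 9.31% ± 1.18 (SD, n = 12). With limma's moderated test, adjusted over all 14027 genes at a threshold of 0.05, 13 members were higher in alpha cells (21% of members, against 37.8% of all genes) and 30 were higher in beta cells (48.4% of members, against 37.2% of all genes). At a fold of at least 2 the counts were 2 members higher in alpha cells (11.2% of all genes) and 6 higher in beta cells (9.54% of all genes). The median difference was -0.15 log2 over the 62 members and 0.013 over all genes. The higher fitted level was in beta cells for 38 members (61.3%, against 49% of all genes). Libraries of the cell types did not overlap for 2 members that were higher in alpha cells, Hspa2 and Dnajc22 (11.9% of all genes), and for 12 that were higher in beta cells (14.2% of all genes).

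**Figure D1:**
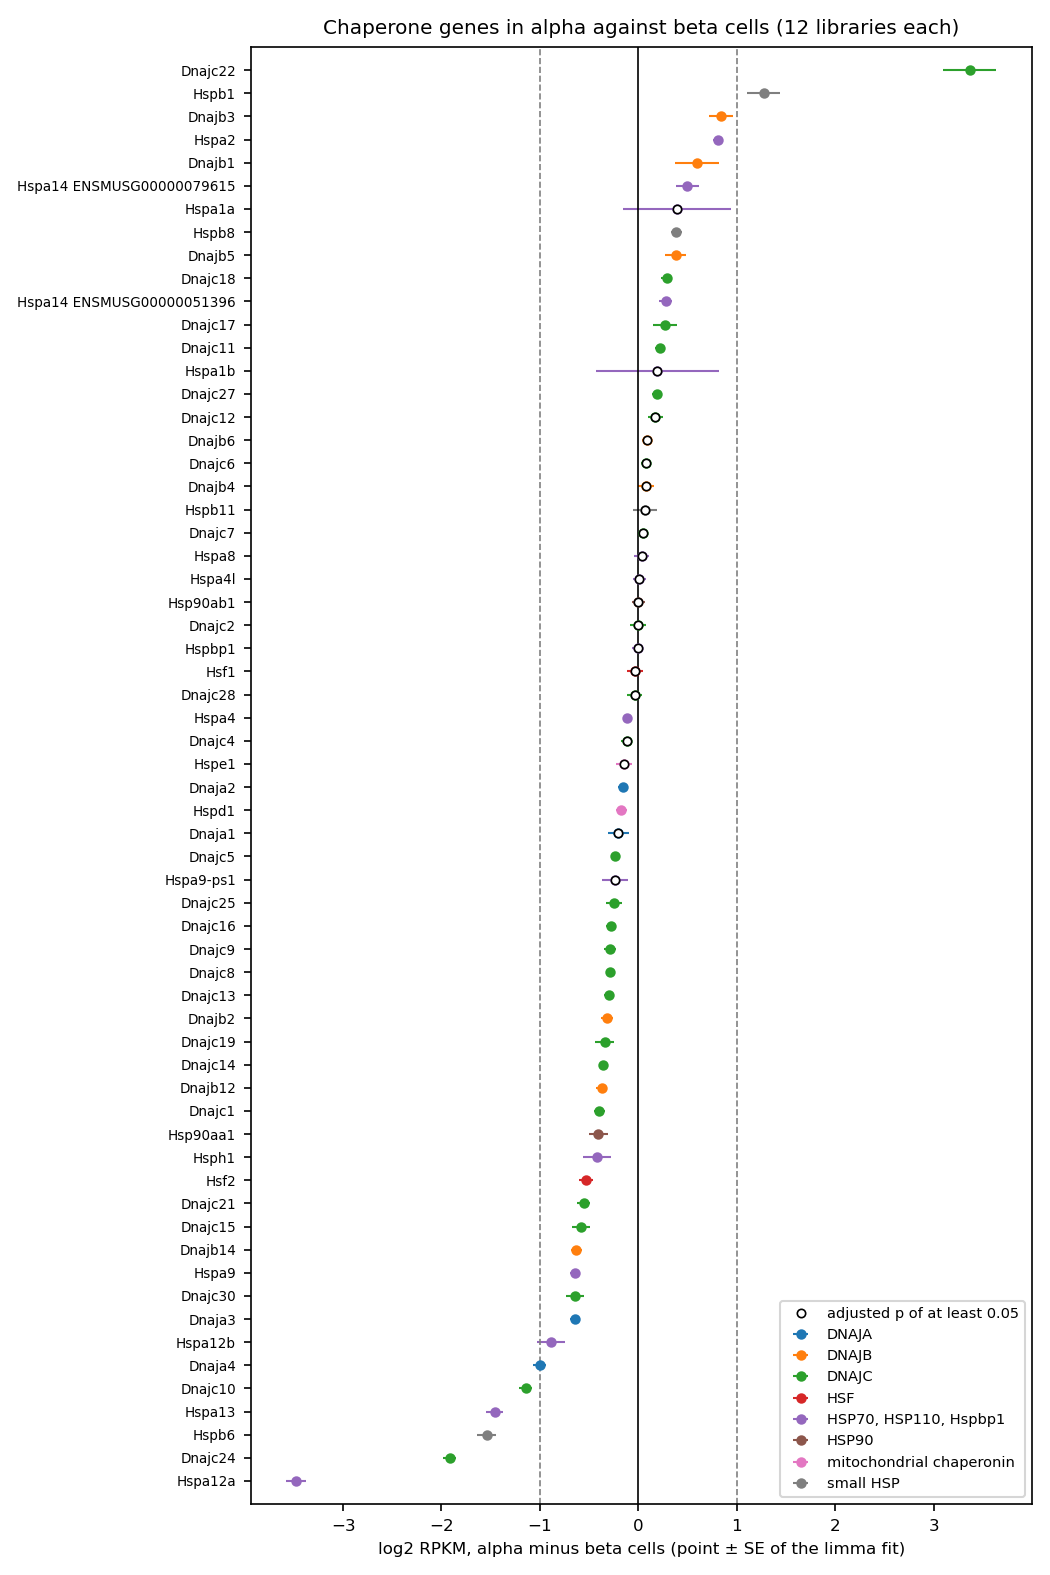
Each of the 62 members is a row, placed at its difference in log2 RPKM, alpha minus beta cells, with the SE of the limma fit as the bar. Open circles mark adjusted p of at least 0.05 and dashed lines a fold of 2; Dnajc22 lies at 3.37 at the top and Hspa12a at -3.48 at the bottom, while most members lie within the dashed lines.

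Of the transcription factors, Hsf1, the main activator of the heat shock response, did not pass the test and Hsf2, a related factor that can pair with it, was higher in beta cells. Hsf1 ranged from 8.34 to 19.0 RPKM in alpha libraries (median 12.7) and from 10.1 to 18.5 RPKM in beta libraries (median 12.5). These ranges cover each other almost wholly, and the difference was -0.03 ± 0.08 log2 (adjusted p = 0.728, limma). Its sign was positive, 0.08, under quantile normalization. Hsf2 ranged from 6.57 to 10.7 RPKM in alpha libraries (median 8.26) and from 10.7 to 15 RPKM in beta libraries (median 11.8). No alpha library reached the lowest beta library, and Hsf2 was 1.45-fold higher in beta cells (-0.53 ± 0.07 log2, adjusted p = 7.11e-07, limma).

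In the HSP70 group, the abundant Hspa8 did not pass the test, and the differences of at least 2-fold lay in Hspa12a and Hspa13. Hspa8, the constitutive HSP70 of the cytosol, ranged from 80.9 to 131 RPKM in alpha libraries (median 105) and from 61.9 to 155 RPKM in beta libraries (median 101). The ranges overlapped and the difference missed the threshold (0.04 ± 0.08 log2, adjusted p = 0.691, limma), although quantile normalization put it higher in alpha cells (0.25 log2, adjusted p = 0.0099). Hspa4l, an HSP110 exchange factor, averaged 9.43 ± 1.58 RPKM in alpha cells against 9.41 ± 1.85 RPKM in beta cells. Hspa4, the more abundant HSP110 member, averaged 33.2 ± 3.83 RPKM in alpha cells against 35.9 ± 3.85 RPKM in beta cells, a 1.08-fold difference that passed the test (adjusted p = 0.013, limma). Hspbp1, which releases nucleotide from HSP70, averaged 13.6 ± 1.84 RPKM in alpha cells against 13.9 ± 3.02 RPKM in beta cells.

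Hspa12a, a distant HSP70 relative with no settled chaperone role, showed the steepest difference of the group. Its 12 alpha libraries lay between 0.782 and 1.52 RPKM (median 1.08) and its 12 beta libraries between 10.8 and 15 RPKM (median 11.3). Every beta library was thus several times above every alpha library, an 11.1-fold difference (-3.48 ± 0.10 log2, adjusted p = 1.7e-18, limma). Its sister Hspa12b, known from endothelial cells, averaged 0.713 ± 0.198 RPKM in alpha cells against 1.35 ± 0.291 RPKM in beta cells, 1.85-fold higher in beta cells (adjusted p = 9.85e-06, limma). Endothelial markers summed to 0.412 to 2.12 RPKM in alpha libraries and 0.317 to 1.67 RPKM in beta libraries, ranges that overlapped.

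Hspa13, an HSP70 of the ER and microsomes, and Hspa9, the HSP70 of mitochondria, were both higher in beta cells without overlap. Hspa13 ranged from 15.1 to 24.7 RPKM in alpha libraries (median 17.8) and from 35.9 to 76.0 RPKM in beta libraries (median 49.6). The difference was 2.75-fold (-1.46 ± 0.09 log2, adjusted p = 1.07e-12, limma). Hspa9 averaged 40.8 ± 3.73 RPKM in alpha cells against 63.5 ± 3.99 RPKM in beta cells, 1.56-fold higher in beta cells (adjusted p = 5.53e-11, limma). The HSP110 gene Hsph1 averaged 11.7 ± 4.3 RPKM in alpha cells against 16.2 ± 7.68 RPKM in beta cells (-0.42 ± 0.14 log2, adjusted p = 0.012, limma). That call was lost under quantile normalization (adjusted p = 0.0573), without the time term (0.145) and without the ZT16 libraries (0.0613).

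On the alpha side stood Hspa2, an HSP70 best known from male germ cells. It ranged from 14.7 to 24.8 RPKM in alpha libraries (median 16.8) and from 8.52 to 12.7 RPKM in beta libraries (median 9.60). The lowest alpha library was above the highest beta library, and the difference was 1.75-fold (0.81 ± 0.05 log2, adjusted p = 4.51e-12, limma). Both entries that the files list as Hspa14, an HSP70 linked to ribosomes, were also higher in alpha cells, by 0.28 ± 0.07 log2 for ENSMUSG00000051396 and 0.50 ± 0.12 log2 for ENSMUSG00000079615. In GENCODE M21 the first is named Gm45902 and the second was not found, so which of them is Hspa14 is uncertain. In all, 3 of the 15 genes of this group were higher in alpha cells (20% against 37.8% of all genes), and 6 were higher in beta cells (40%, close to the 37.2% of all genes).

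Of the cytosolic HSP90 genes, the constitutive Hsp90ab1 was the most abundant member in both cell types and did not pass the test, and the inducible Hsp90aa1 was higher in beta cells. Hsp90ab1 ranged from 248 to 343 RPKM in alpha libraries (median 285) and from 227 to 388 RPKM in beta libraries (median 278). The difference was 0.0015 log2 with an SE of 0.07 (adjusted p = 0.985, limma). Hsp90aa1 ranged from 29.2 to 60.9 RPKM in alpha libraries (median 42.7) and from 35.4 to 85.7 RPKM in beta libraries (median 56.2). The ranges overlapped, but beta cells were higher at 6 of 6 times, by 1.32-fold on average (-0.40 ± 0.10 log2, adjusted p = 0.000836, limma). Under quantile normalization the call was lost (-0.17 log2, adjusted p = 0.123).

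The small heat shock proteins split by cell type: Hspb1 and Hspb8 were higher in alpha cells, Hspb6 in beta cells, and Hspb11 did not pass the test. Hspb1, also called Hsp25 or Hsp27, ranged from 0.697 to 2.63 RPKM in alpha libraries (median 1.52) and from 0.207 to 0.964 RPKM in beta libraries (median 0.540). It was 2.42-fold higher in alpha cells (1.27 ± 0.17 log2, adjusted p = 4.78e-07, limma), but it rests on 2 to 30 reads per library. Hspb6, or Hsp20, showed the opposite: 1.01 to 1.97 RPKM in alpha libraries (median 1.61) and 3.33 to 5.96 RPKM in beta libraries (median 4.47). No libraries overlapped, and it was 2.91-fold higher in beta cells (-1.54 ± 0.09 log2, adjusted p = 8.86e-13, limma). Hspb8, which works with the co-chaperone Bag3 in selective autophagy, averaged 18.5 ± 2.37 RPKM in alpha cells against 14.1 ± 1.55 RPKM in beta cells (0.39 ± 0.06 log2, adjusted p = 3.81e-06, limma). Hspb11, which despite its name is a subunit of the ciliary transport machinery, averaged 1.76 ± 0.562 RPKM in alpha cells against 1.62 ± 0.227 RPKM in beta cells.

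The mitochondrial chaperonin was close between the cell types. Hspd1 (HSP60) averaged 39.3 ± 4.26 RPKM in alpha cells against 44.4 ± 5.77 RPKM in beta cells (-0.17 ± 0.05 log2, adjusted p = 0.00734, limma), and its sign turned to 0.06 under quantile normalization. Hspe1 (HSP10), its lid and head-to-head neighbour on chromosome 1, averaged 20.2 ± 2.23 RPKM in alpha cells against 22.6 ± 4.17 RPKM in beta cells (-0.14 ± 0.08 log2, adjusted p = 0.121, limma), with 0.03 under quantile normalization. Of 7 other mitochondrial partners measured, 5 were higher in beta cells (37.2% of all genes were), among them the HSP70 exchange factor Grpel1 (8.51 ± 1.25 RPKM in alpha, 12.3 ± 1.42 RPKM in beta) and the protease subunit Clpp (18.2 ± 1.75 RPKM in alpha, 28.5 ± 2.13 RPKM in beta). Grpel2, the second exchange factor, was the 1 partner higher in alpha cells (8.30 ± 1.43 RPKM in alpha, 6.59 ± 0.835 RPKM in beta).

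All 4 DNAJA genes, the J proteins closest to the bacterial form, had the lower level in alpha cells (49% of all genes did). Of these, 3 passed the test as higher in beta cells (37.2% of all genes). Dnaja4 ranged from 13.4 to 20 RPKM in alpha libraries (median 16.5) and from 26.7 to 40.0 RPKM in beta libraries (median 33.8). Its libraries did not overlap, and its difference lies at the fold threshold of 2 (-1.0 ± 0.06 log2, adjusted p = 1.55e-12, limma). Dnaja3, the mitochondrial member, averaged 7.20 ± 0.679 RPKM in alpha cells against 11.3 ± 1.24 RPKM in beta cells, again without overlap. Dnaja2 averaged 23.6 ± 1.65 RPKM in alpha cells against 26.5 ± 3.25 RPKM in beta cells (adjusted p = 0.00641, limma). Dnaja1, a heat-inducible partner of Hspa8, averaged 8.20 ± 1.74 RPKM in alpha cells against 9.34 ± 1.42 RPKM in beta cells. It was lower in alpha cells at 6 of 6 times but missed the threshold without matching by replicate number (adjusted p = 0.098, limma).

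Of the 8 DNAJB genes, the test called 3 on the alpha side and 3 on the beta side, 37.5% each way, close to the 37.8% and 37.2% of all genes. Dnajb1, the heat-inducible HSP40, ranged from 19.6 to 87.5 RPKM in alpha libraries (median 43.0) and from 14.1 to 39.9 RPKM in beta libraries (median 29.8). Alpha cells were higher at 6 of 6 times, by 1.51-fold (0.60 ± 0.23 log2, adjusted p = 0.0234, limma), and the call was lost without beta replicate 2 of ZT4 (adjusted p = 0.0505) and without the ZT16 libraries (0.0544). Dnajb3, best known from testis, averaged 3.47 ± 0.995 RPKM in alpha cells against 1.82 ± 0.456 RPKM in beta cells, and Dnajb5, an HSP40 relative, 1.97 ± 0.592 RPKM in alpha cells against 1.52 ± 0.534 RPKM in beta cells. Higher in beta cells were Dnajb2, whose product carries ubiquitin-binding motifs (14.1 ± 2.85 RPKM in alpha, 17.6 ± 3.65 RPKM in beta), and the related ER membrane proteins Dnajb12 and Dnajb14, which recruit cytosolic HSP70. Dnajb12 averaged 13.4 ± 1.23 RPKM in alpha cells against 17.4 ± 1.22 RPKM in beta cells, and Dnajb14 5.48 ± 0.635 RPKM in alpha cells against 8.46 ± 0.599 RPKM in beta cells. Both pairs of ranges were free of overlap. Dnajb4 and Dnajb6 did not pass the test.

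Among the 25 DNAJC genes, which share little beyond the J domain, 5 passed the test as higher in alpha cells (20% against 37.8% of all genes) and 14 as higher in beta cells (56% against 37.2% of all genes). By sign alone the higher level was in alpha cells for 8 and in beta cells for 17 (68%, against 49% of all genes). Dnajc22, whose fly counterpart Wurst acts in endocytosis, showed the largest excess in alpha cells of any member. It ranged from 1.69 to 3.50 RPKM in alpha libraries (median 2.28) and from 0 to 0.564 RPKM in beta libraries (median 0.184). In beta cells 3 libraries had no read, and the fitted difference of 3.37 ± 0.27 log2 (adjusted p = 1.51e-10, limma) depends on the prior count added by the authors. The raw means were 2.41 ± 0.46 RPKM in alpha cells against 0.181 ± 0.172 RPKM in beta cells.

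The DNAJC gene with the largest excess in beta cells was Dnajc24, a J protein needed for diphthamide synthesis on elongation factor 2. It lay between 4.27 and 5.92 RPKM in alpha libraries (median 4.88) and between 14.8 and 25.8 RPKM in beta libraries (median 18.7). The ranges stood far apart, and it was 3.78-fold higher in beta cells (-1.92 ± 0.06 log2, adjusted p = 1.76e-17, limma). Dnajc10, an ER disulfide reductase that stays in the set because its symbol was not on the left-out list, ranged from 19.4 to 26.1 RPKM in alpha libraries (median 21.7) and from 38.2 to 66.9 RPKM in beta libraries (median 48.4). Its difference was 2.21-fold (-1.14 ± 0.07 log2, adjusted p = 2.67e-13, limma).

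The other DNAJC genes differed by less than 2-fold. Dnajc15, of the mitochondrial import motor, averaged 14.7 ± 2.45 RPKM in alpha cells against 22.2 ± 3.86 RPKM in beta cells, and the mitochondrial Dnajc30 4.89 ± 1.01 RPKM in alpha cells against 7.63 ± 0.726 RPKM in beta cells. Dnajc19, also of the import motor, was at 1.80 ± 0.266 RPKM in alpha cells against 2.30 ± 0.428 RPKM in beta cells, while the mitochondrial Dnajc11 was higher in alpha cells (4.23 ± 0.303 RPKM in alpha, 3.64 ± 0.397 RPKM in beta). Dnajc5, the cysteine string protein of secretory vesicles, was slightly higher in beta cells, at 19.3 ± 1.5 RPKM in alpha cells against 22.8 ± 2.19 RPKM in beta cells (-0.24 ± 0.04 log2, adjusted p = 1.92e-05, limma). Dnajc6, or auxilin, which uncoats clathrin vesicles with Hspa8, did not pass the test (17.2 ± 2.3 RPKM in alpha, 16.2 ± 1.74 RPKM in beta). Dnajc21, which acts in ribosome assembly, averaged 7.14 ± 1.59 RPKM in alpha cells against 10.4 ± 1.82 RPKM in beta cells, and Dnajc14 was higher in beta cells without overlap (21.2 ± 1.24 RPKM in alpha, 27.2 ± 1.42 RPKM in beta). Also higher in alpha cells were Dnajc17, Dnajc18 and Dnajc27, each by less than 0.3 log2. Dnajc1, Dnajc8, Dnajc9, a histone co-chaperone, Dnajc13, which acts on endosomes, Dnajc16 and Dnajc25 were higher in beta cells by 1.19- to 1.32-fold. The remaining 6 DNAJC genes did not pass the test, Dnajc12 most narrowly, at 17.1 ± 2.38 RPKM in alpha cells against 15.1 ± 1.72 RPKM in beta cells (adjusted p = 0.0509, limma).

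The 5 left-out ER chaperones stood on the beta side more steeply than the members' median. All 5 were called higher in beta cells (37.2% of all genes), with a median of -1.17 log2. Hspa5, the HSP70 of the ER known as BiP, averaged 321 ± 40.0 RPKM in alpha cells against 665 ± 147 RPKM in beta cells, and Dnajb11, its J protein, 11.8 ± 2.33 RPKM in alpha cells against 43.8 ± 9.85 RPKM in beta cells (SD, n = 12 each).

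The next question was how steady the inducible genes were between replicates and across the day. Hspa1a and Hspa1b, the classical heat-induced HSP70 genes, were the members that varied most between the 2 libraries of a group. Over all groups, the median SD between replicates was 0.211 log2 for all genes and 0.173 log2 for the members, against 1.65 log2 for Hspa1a and 1.88 log2 for Hspa1b. Among the 14027 genes these lay at percentiles 99.89 and 99.96.

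The variation was concentrated at ZT4 and ZT8. At ZT4, Hspa1a stood at 28.0 RPKM in alpha replicate 1 and 1.06 RPKM in alpha replicate 2, and at 12.6 RPKM in beta replicate 1 and 0.445 RPKM in beta replicate 2. At ZT8 the order of the numbers was the other way round: 1.28 RPKM in alpha replicate 1 and 9.34 RPKM in alpha replicate 2, and 1.04 RPKM in beta replicate 1 and 10.1 RPKM in beta replicate 2. Thus the alpha and beta libraries that share a replicate number were high or low together, with gaps at ZT4 of 26.5-fold in alpha and 28.3-fold in beta cells. At the other 4 times Hspa1a stayed between 2.46 and 9.97 RPKM in alpha and between 2.38 and 8.31 RPKM in beta libraries.

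Hspa1b behaved alike. At ZT4 it had 27.6 and 0.426 RPKM in alpha replicates 1 and 2, and 13.1 and 0.352 RPKM in beta replicates 1 and 2, gaps of 64.9-fold in alpha and 37.3-fold in beta cells. At ZT8 it had 0.879 and 7.22 RPKM in alpha replicates 1 and 2, and 0.653 and 8.86 RPKM in beta replicates 1 and 2. Dnajb1 moved the same way with smaller gaps: 87.5 and 19.6 RPKM in alpha replicates 1 and 2 at ZT4, against 33.6 and 14.1 RPKM in the beta replicates, and 20.7 and 74.4 RPKM in alpha replicates 1 and 2 at ZT8, against 16.8 and 39.9 RPKM in the beta replicates. The HSP70 pair passed the test neither between cell types nor for a rhythm when libraries were not matched by replicate number. Alpha minus beta was 0.39 ± 0.55 log2 for Hspa1a (adjusted p = 0.524) and 0.19 ± 0.62 log2 for Hspa1b (adjusted p = 0.792, both limma). The mean log2 level of Hspa1a was higher in alpha cells at 6 of 6 times. Its mean RPKM at ZT8, however, was 5.31 in alpha and 5.59 in beta cells. The sign for Hspa1b turned when 1 of 3 libraries was left out, to -0.18 log2 without alpha replicate 1 of ZT4.

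**Figure D2:**
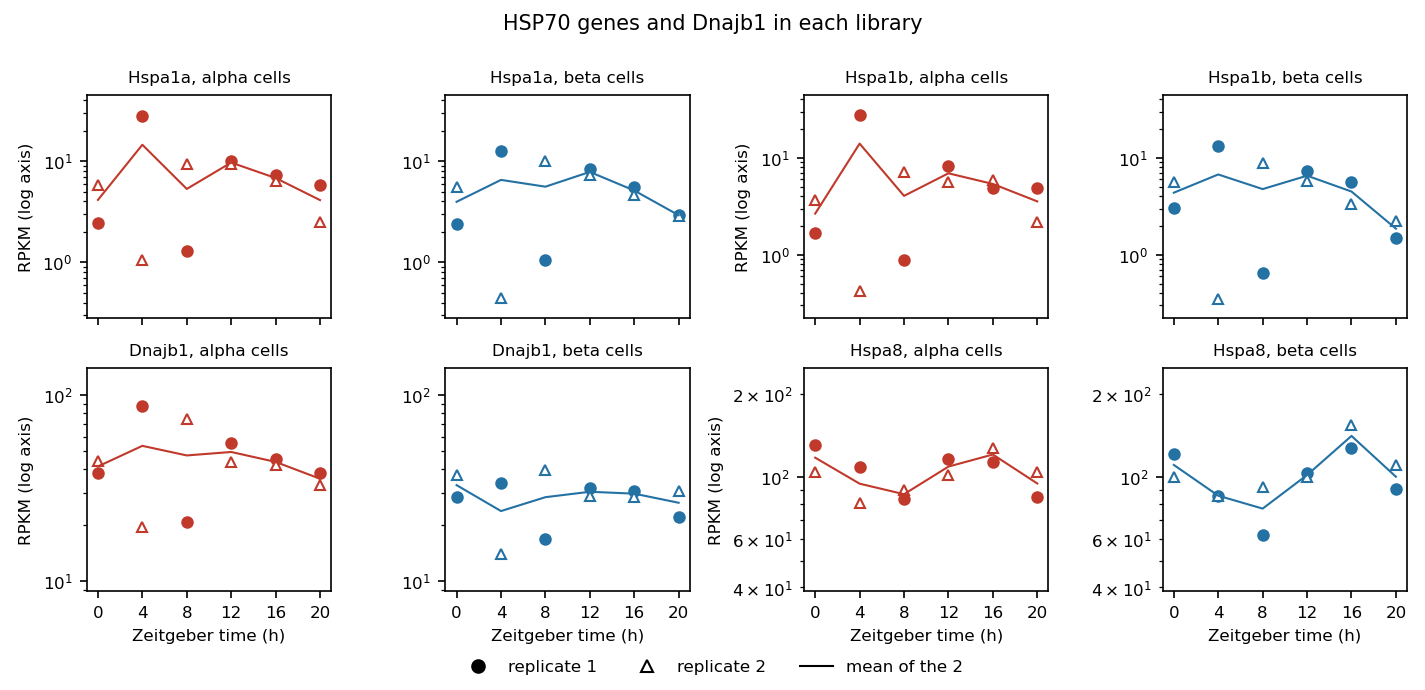
Levels in RPKM on a log axis against zeitgeber time in hours, with alpha cells in red and beta cells in blue, filled circles for replicate 1, open triangles for replicate 2, and a line through the mean of both. For Hspa1a, Hspa1b and Dnajb1 replicate 1 is far above replicate 2 at ZT4 and far below it at ZT8 in both cell types. Hspa8 shows smaller gaps, at ZT4 of 1.34-fold in alpha and 1.0-fold in beta cells. At ZT8 its replicate 2 is higher by 1.08-fold in alpha and 1.49-fold in beta cells.

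Few other members shared the pattern. At ZT4, 5 members had replicate 1 at least 1.5-fold over replicate 2 in both cell types, Hspa1a, Hspa1b, Dnajb1, Dnaja1 and Hspa14 ENSMUSG00000079615 (4.92% of all genes did), and none had the opposite (1.2% of all genes). At ZT8, 5 members had replicate 2 at least 1.5-fold over replicate 1, Hspa1a, Hspa1b, Dnajb1, Hsph1 and Hspb1 (2.09% of all genes), and none had the opposite (0.934% of all genes). All 4 gaps were present for 3 members, Hspa1a, Hspa1b and Dnajb1, and for 1.13% of all genes. These members were named after their values were seen.

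Other values moved with the gaps at ZT4, and some of them at ZT8 too. The summed level of 18 immediate early genes, such as Fos and Jun, which rise within minutes of stimulation or tissue handling, was 1648 and 644 RPKM in alpha replicates 1 and 2 and 807 and 457 RPKM in beta replicates 1 and 2 at ZT4. The median of this sum was 1649 RPKM over the 12 alpha libraries and 741 RPKM over the 12 beta libraries. Replicate 1 of ZT4 was thus at the median for alpha and slightly above it for beta. Its Hspa1a level, by contrast, was the highest of each cell type. At ZT8 the summed level was 493 and 3117 RPKM in alpha replicates 1 and 2. For the beta replicates it was 324 and 1300 RPKM. These were the lowest and the highest of each cell type's 12 libraries. The ZT4 replicate 1 libraries held the highest sums of the other cell type's markers. These sums were 5210 RPKM of beta markers in alpha and 1915 RPKM of alpha markers in beta. At ZT8 beta markers summed to 951 and 787 RPKM in alpha replicates 1 and 2, the reverse of the Hspa1a order. Alpha markers there summed to 39.2 and 86.7 RPKM in beta replicates 1 and 2. The part of either in the gaps was not tested.

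**Figure D3:**
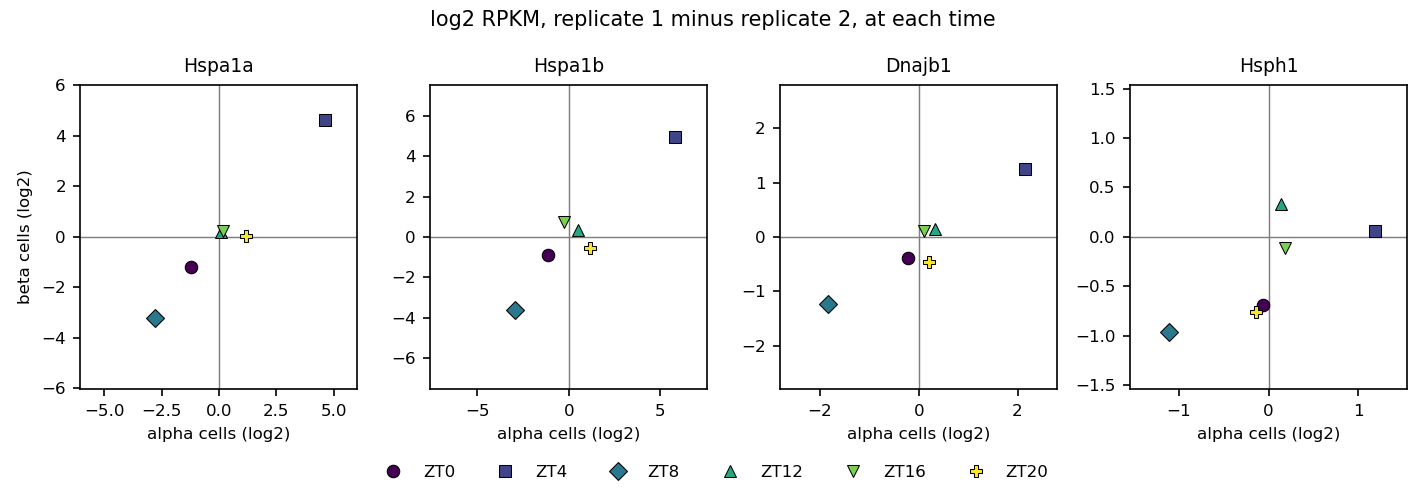
For each time, the difference between replicate 1 and replicate 2 in log2 RPKM in alpha cells (horizontal) is plotted against the same difference in beta cells (vertical) for Hspa1a, Hspa1b, Dnajb1 and Hsph1. ZT4 lies at the upper right and ZT8 at the lower left for Hspa1a, Hspa1b and Dnajb1, while for Hsph1 the ZT4 gap is 2.28-fold in alpha cells against 1.05-fold in beta cells.

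Daily rhythms were described by a cosine with a period of 24 h, 1 for alpha and 1 for beta cells. In alpha cells 10 members passed the F-test (16.1% of members, against 9.66% of all genes) and in beta cells 10 (16.1% of members, against 16% of all genes), with 6 in both (9.68% of members, against 4.15% of all genes). In alpha cells 6 of the 10 peaked in the night, between ZT18.3 and ZT21.1, and 4 in the day, between ZT5.6 and ZT7.5. In beta cells 7 peaked between ZT17.4 and ZT20.2 and 3 between ZT6.6 and ZT11.9. These counts rest on few libraries: in alpha cells the count was 0 without replicate 1 of ZT8, 3 without replicate 2 of ZT4 or either replicate of ZT16, 5 or 6 without replicate 2 or 1 of ZT12 and 6 without replicate 1 of ZT20. In beta cells it was 3 without replicate 1 of ZT8, 6 or 5 without replicate 1 or 2 of ZT12, and 6 without either replicate of ZT16. Without all ZT4 and ZT8 libraries 0 members passed in either cell type, and without ZT16 it was 1 in each. With time as a factor in place of a cosine it was 3 in alpha cells. Of the 16 called rhythms with the lowest p in alpha or beta cells, 8 lost the call in that setting. How many of all rhythmic genes peaked in the night was not counted. Of the 6 times, ZT16 was the highest for 35.5% of members and 25.6% of all genes in alpha cells. In beta cells it was the highest for 32.3% of members and 29.0% of all genes.

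**Figure D4:**
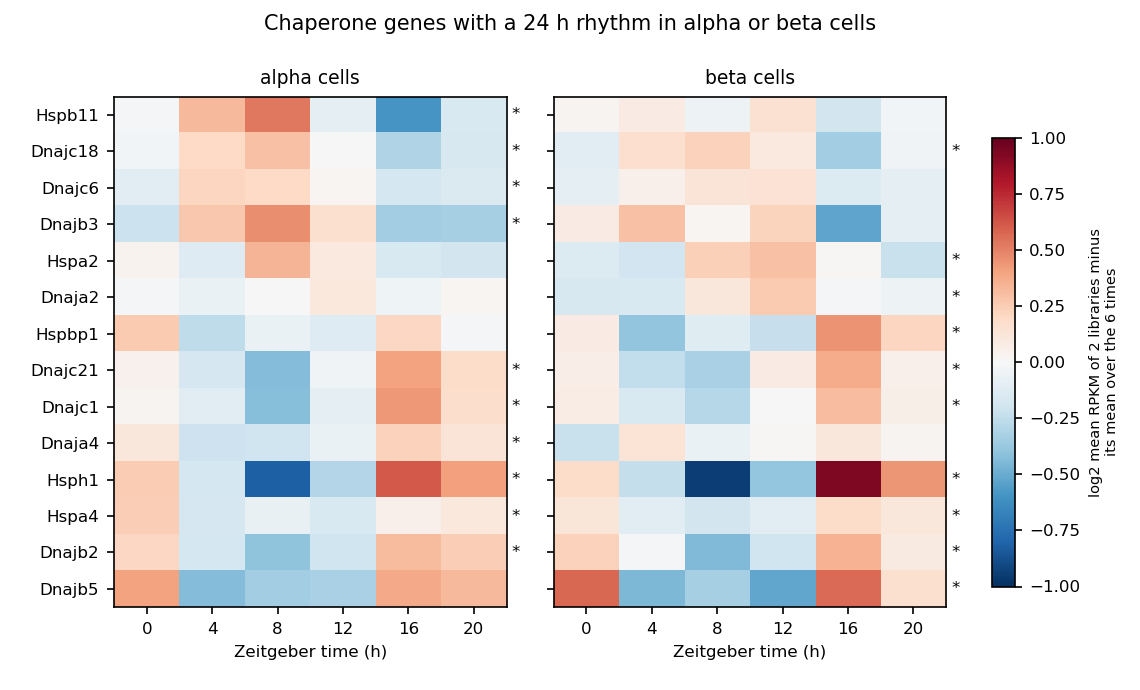
Rows are the 14 members with a 24 h rhythm in alpha or beta cells, columns the 6 zeitgeber times in hours, alpha cells left and beta cells right. Colour gives the log2 of the mean RPKM of 2 libraries minus its mean over the 6 times, and asterisks mark adjusted p under 0.05; Hsph1 is lowest at ZT8 and highest at ZT16 in both cell types, and Hspb11 and Dnajc18 are lowest at ZT16 in both.

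Hsph1, the HSP110 exchange factor, had the largest daily range among the members called. In alpha cells its 2 libraries stood at 13.0 and 13.6 RPKM at ZT0, 13.7 and 6.02 at ZT4, 4.01 and 8.67 at ZT8, 9.52 and 8.67 at ZT12, 18.1 and 16 at ZT16, and 14.0 and 15.5 at ZT20. In beta cells they stood at 13.0 and 20.8 RPKM at ZT0, 12.9 and 12.3 at ZT4, 5.23 and 10.2 at ZT8, 12.7 and 10.1 at ZT12, 27.3 and 29.5 at ZT16, and 15 and 25.3 at ZT20. On average both cell types were lowest at ZT8 and highest at ZT16, and the ZT16 libraries were above all others in each. The fitted rise was 2.6-fold in alpha cells with a peak at ZT19.4 ± 0.94 h (adjusted p = 0.0348) and 2.93-fold in beta cells with a peak at ZT19.1 ± 0.84 h (adjusted p = 0.0128, both limma). The alpha call was lost without any 1 of 5 alpha libraries (adjusted p up to 0.163, without replicate 1 of ZT8) and the beta call without beta replicate 1 of ZT8 (0.0558).

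The other members called in both cell types were Dnajb2, Dnajc1, Dnajc21, Hspa4 and Dnajc18. Dnajb2 had 9.25 and 11.7 RPKM at ZT8 and 17.1 and 17.4 RPKM at ZT16 in alpha cells, and 11.2 and 14.3 RPKM at ZT8 and 20.2 and 23.9 RPKM at ZT16 in beta cells. The times were apart in both cell types, with a 1.66-fold rhythm in alpha cells (adjusted p = 0.0119) and a 1.53-fold one in beta cells (adjusted p = 0.0223, both limma). Dnajc1, an ER membrane J protein that contacts ribosomes, showed the lowest p in alpha cells, 1.59-fold with a peak at ZT18.5 ± 0.75 h (adjusted p = 0.00999), and 1.38-fold in beta cells (adjusted p = 0.0483). Dnajc21 was 1.61-fold in alpha cells against 1.5-fold in beta cells. Hspa4, the HSP110 family member with little response to heat, had a shallower rhythm, 1.26-fold in alpha cells against 1.3-fold in beta cells. Dnajc18, an ER membrane J protein, ran in the opposite phase, with peaks at ZT6.08 ± 0.90 h in alpha and ZT6.58 ± 1.07 h in beta cells. Peak times of these 6 genes differed between alpha and beta cells by -0.5 to 1.49 h, each within 1.1 times its SE.

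In alpha cells the test was also passed by Dnaja4 (1.37-fold, peak ZT18.7) and by 3 day-peaking genes, Hspb11 (1.8-fold, peak ZT5.57), Dnajc6 (1.35-fold, peak ZT6.69) and Dnajb3 (1.84-fold, peak ZT7.48). In beta cells it was also passed by the exchange factor Hspbp1 (1.59-fold, peak ZT18.2 ± 0.82 h, adjusted p = 0.0106, limma), by Dnajb5 (2.02-fold, peak ZT20.1), and by Hspa2 (1.44-fold, peak ZT10.9) and Dnaja2 (1.3-fold, peak ZT11.9). The Hspbp1 call held in all 24 fits with 1 library left out, while that of Hspb11 was lost in 10 of them. Hspb11 rests on 18 to 84 reads per library and Dnajb3 on 13 to 60. Passing in 1 cell type does not show a difference between them. The difference of the 24 h rhythm passed for 0 members (0.0713% of all genes), with 4 members at an unadjusted p under 0.05 (7.66% of all genes): Dnaja4, Dnajc12, Dnajc24 and Dnaja3, at an adjusted p of 0.577 to 0.643 (limma). Dnajc10 and Hspb11 followed, at an adjusted p of 0.779 and 0.789 (limma).

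Hsf1, Hspa8 and Hsp90aa1 did not pass the rhythm test in either cell type, and Hsf1 in alpha cells missed it most narrowly. Hsf1 had 16.9 and 19.0 RPKM at ZT16 and 8.34 and 12.6 RPKM at ZT8 in alpha cells, and 17.4 and 18.1 RPKM at ZT16 and 10.1 and 10.6 RPKM at ZT8 in beta cells. The times did not overlap in either cell type, but at ZT0 its replicates were far apart, 11.5 and 16.7 RPKM in alpha and 10.9 and 18.5 RPKM in beta cells. Its fitted rhythm was 1.62-fold in alpha cells with a peak at ZT19.0 (adjusted p = 0.0502) and 1.5-fold in beta cells with a peak at ZT18.6 (adjusted p = 0.0789, both limma). Hspa8 had a fitted rhythm of 1.21-fold in alpha cells (adjusted p = 0.529) and 1.56-fold in beta cells (adjusted p = 0.0561), peaking at ZT17.8 in both. Hsp90aa1 was at 1.55-fold in alpha cells (adjusted p = 0.164) and 1.58-fold in beta cells (adjusted p = 0.122).

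**Figure D5:**
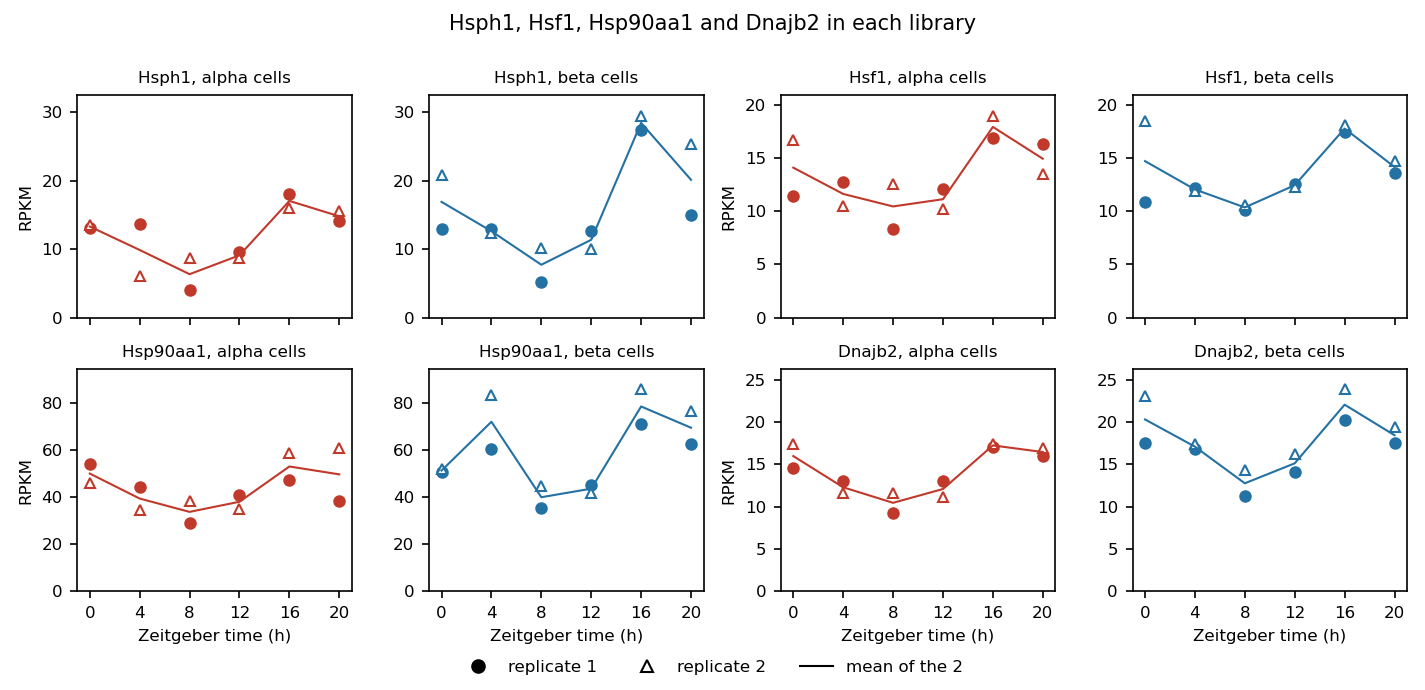
Levels in RPKM against zeitgeber time in hours, alpha cells in red and beta cells in blue, filled circles for replicate 1, open triangles for replicate 2, and a line through the mean of both. Hsph1 and Dnajb2 are lowest at ZT8 and highest at ZT16 in both cell types; Hsf1 has the same shape but its replicates are apart at ZT0, and Hsp90aa1 in beta cells is high at both ZT4 and ZT16.

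A 12 h component was tested beside the 24 h one, since 12 h rhythms of chaperone genes are known from mouse liver. No member passed in alpha cells (0.0214% of all genes) or in beta cells (0% of all genes). At an unadjusted p under 0.05 there were 6 members in alpha cells (9.72% of all genes) and 9 in beta cells (6.04% of all genes). The lowest in alpha cells were Hspb1 (adjusted p = 0.388) and Dnajc1 (adjusted p = 0.396, both limma), followed by Dnajc8, Hsp90ab1, Dnajc9 and Hspa9. In beta cells the lowest were Hsp90ab1 (adjusted p = 0.342), Hspa4l (0.359) and Hsp90aa1 (0.453, limma for all), followed by Hspe1, Dnajb2 and Hspa13. Hsp90ab1 in beta cells had 227 and 291 RPKM at ZT0, 303 and 356 at ZT4, 228 and 228 at ZT8, 249 and 249 at ZT12, 351 and 388 at ZT16, and 266 and 341 at ZT20. Its libraries at ZT4 and ZT16 were thus above those at ZT8 and ZT12, and the fitted 12 h peaks of these 3 genes fell 4.2 to 4.41 h after ZT0 and again 12 h later. With samples 4 h apart a 12 h cycle is seen at only 3 points.

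The partners of the HSP70 and HSP90 machines were followed as a list of 23 co-chaperones that are not members. With the same test, 5 of them were called higher in alpha cells (37.8% of all genes) and 9 higher in beta cells (37.2% of all genes). By sign alone 13 had the higher level in alpha cells and 10 in beta cells, with a median of 0.0075 log2 against 0.013 over all genes. Bag2, an exchange factor of HSP70, was the steepest, at 3.60 ± 0.656 RPKM in alpha cells against 13.8 ± 1.94 RPKM in beta cells, and Sugt1, which links HSP90 to other complexes, was at 23.1 ± 3.15 RPKM in alpha cells against 14.8 ± 1.55 RPKM in beta cells. In alpha cells 4 co-chaperones had a 24 h rhythm (9.66% of all genes did), in beta cells 7 (16% of all genes), and the 4 were called in both (4.15% of all genes): Stip1, which joins HSP70 to HSP90, Chordc1, Cdc37l1 and Fkbp4. Their peaks lay between ZT16.5 and ZT20.1. Stip1 rose 1.71-fold in alpha cells with a peak at ZT19.6 (adjusted p = 0.03) and 1.74-fold in beta cells with a peak at ZT18.3 (adjusted p = 0.018, both limma). Beta cells added Bag3, Ahsa2 and Unc45a, with peaks at ZT18.0, ZT19.2 and ZT17.5.

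The cytosolic chaperonin and prefoldin, which fold actin and tubulin, had 8 of 13 measured genes higher in alpha cells (37.8% of all genes) and 0 called higher in beta cells (37.2% of all genes). The median was 0.28 log2, and the other 5 genes, which did not pass, had the higher level in beta cells. In that list Cct2 averaged 87.8 ± 12.1 RPKM in alpha cells against 69.6 ± 4.23 RPKM in beta cells, and Pfdn5 84.0 ± 16.7 RPKM in alpha cells against 61.4 ± 12.8 RPKM in beta cells. Of 6 further genes linked to the heat shock response, 1 was called higher in alpha cells (37.8% of all genes). It was the collagen chaperone Serpinh1 (12.8 ± 1.81 RPKM in alpha, 2.10 ± 0.418 RPKM in beta). The stromal marker sum, which in alpha libraries came mostly from Col1a2, was also higher in alpha cells. The other 5 genes of that list were called higher in beta cells (37.2% of all genes). Among them were Hmox1, which degrades heme (0.562 ± 0.256 RPKM in alpha, 3.08 ± 0.969 RPKM in beta), and the ubiquitin gene Ubb (98.1 ± 11.7 RPKM in alpha, 132 ± 15 RPKM in beta).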

How the data were processed

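The authors deposited log2 values per gene, which the values show to be log2 RPKM with a prior count averaging 2.0. The submitters' processing notes name STAR, edgeR and build mm10; versions, annotation and strand setting of the counting were not given in the sources used. Whole reads were recovered for every gene and library (largest deviation 9.5e-08) and gave RPKM without the prior; the prior shrinks log2 differences of genes with few reads. The planned test assumed counts or linear values, so the deposited log2 values were tested directly with limma 3.58.1 in R 4.3.3 (trend, robust, Benjamini-Hochberg over 14027 genes, all 24 libraries). Cell types were compared with time as a factor of 6 levels; rhythms were F-tests of cosine terms of 24 h, and of 12 h beside them. The code was tested on simulated data. Genes named were a fixed list of heat shock genes, those past a fold of 2, the lowest p for rhythm, difference of rhythm and 12 h component, and examples per class. Members and lists were chosen with earlier results of these data known. Positions are GRCm38.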

Additional observations from a re-analysis of the deposited data

How the results depend on the processing

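Counts of members between the cell types kept within 1.5 times under all scalings, filters and left-out libraries, except that members at least 2-fold higher in alpha cells numbered 1 with log2(RPKM + 1) and 1 with a filter at mean log2 above 0 (690 and 739 of all genes). Quantile normalization turned the sign of Hsf1 (0.0838), Hspd1 (0.0609) and Hspe1 (0.0274). Without ZT4 and ZT8 Hspa8 was -0.0296 and Hsp90ab1 -0.0584, and 24 h rhythms numbered 0 members in alpha and 0 in beta cells (88 and 185 of all genes, 0 with a different rhythm). Without ZT16 they numbered 1 and 1 (375 and 578 of all genes, 5 with a different rhythm). Both of these settings were chosen after seeing the data. They leave fewer libraries, and the 12 h component was not fitted there. With time as a factor 3 members were rhythmic in alpha cells (531 of all genes in alpha, 1212 in beta). Over all genes, quantile normalization gave 2096 rhythms in alpha cells and 18 different ones, log2(RPKM + 1) gave 44 different ones, and 12 h components in alpha cells numbered 0 with log2(RPKM + 1), 1 with log2(RPKM + 0.1), 1 with the filter, 11 with quantile normalization and 0 with voom, and in beta cells 2, 2 and 1 with log2(RPKM + 1), voom and the replicate block. The cause of these changes was not tested.

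Leaving out 1 library at a time, alpha-higher members numbered 11 to 14 and beta-higher members 30 to 32, at a fold of 2 they numbered 2 to 2 and 5 to 6, and rhythmic members 0 to 13 in alpha and 3 to 13 in beta cells. Over all genes the ranges were 348 to 2252 for alpha rhythms, 1077 to 3100 for beta rhythms, 4 to 14 for different rhythms, and 0 to 20 and 0 to 1 for 12 h components in alpha and beta cells. Alpha minus beta ranged from -0.0769 to 0.0121 for Hsf1, -0.0277 to 0.0269 for Hsp90ab1, -0.0085 to 0.0665 for Hspa8 and -0.176 to 0.507 for Hspa1b. The 2-unit heat shock element gave 29.8% of the 47 members with a promoter window and 17.0% of the 27025 genes with one.

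Alpha and beta libraries of 1 time share replicate numbers, but the labels do not say what a number marks. The correlation over genes of replicate 1 minus replicate 2, alpha against beta, was 0.647, 0.422, 0.338, 0.104, 0.186 and 0.0413 from ZT0 to ZT20, so the numbers were not taken as pairs. With time and number as a replicate block, 15 members were called higher in alpha cells and 31 in beta. The added ones were Hspa1a (adjusted p = 0.00479) and Dnajc12 (0.0288) in alpha and Dnaja1 (0.00317) in beta cells. With the number alone as a block, 9 and 8 members were rhythmic in alpha and beta cells; Hspa4 was lost in alpha (0.0562), and Dnajc1 (0.054) and Dnajc18 (0.0508) in beta cells. Few reads limit Hspb1 and Dnajc22 most, and also members such as Dnajb3 (13 to 60 reads per library), Hspa12b (12 to 77) and Hspb11 (18 to 84). The 2 libraries per group limit every rhythm.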
